A study of Mus musculus with 96 samples.

Results

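Bhlhe40 (DEC1) and Bhlhe41 (DEC2) are a pair of basic helix-loop-helix repressors of the circadian clock, and their RNA was measured in the heart ventricles of mice made to lose Bmal1 in cardiomyocytes. The genes were chosen by symbol and are 2 of the 55376 rows of the count table. All mice carried the same genotype label, iCSBmal1 KO, an inducible knockout of Bmal1 (gene symbol Arntl) restricted to cardiomyocytes. They had received Tamoxifen, which switches on the recombinase, or Vehicle, so the 4 groups of 24 libraries are tamoxifen females, tamoxifen males, vehicle females and vehicle males. Each group was sampled every 4 h at 12 times labelled ct18 to ct62, read here as circadian time in hours, with 2 libraries per time. The series title names Bmal1 and sex-specific expression, rhythmic or not, as the subject. The drug and the loss of Bmal1 cannot be told apart, since every group analysed here carries the knockout genotype label. Library numbers run in separate series for tamoxifen of both sexes, vehicle females and vehicle males. Treatment and number series thus cannot be told apart either. Neither the promoter that drives the recombinase nor the age of the mice is stated in the labels. Nothing there says that each library is a separate animal, so the p-values cover the spread among libraries, which may be technical.

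The clock runs on a loop in which BMAL1 and CLOCK bind E-box sequences and switch on genes whose products later repress them. PER and CRY proteins form the main repressing arm. BHLHE40 and BHLHE41 bind E-boxes themselves, compete with BMAL1 and CLOCK there and recruit corepressors, and both genes are in turn E-box targets of BMAL1 and CLOCK. BHLHE40 is also known as a gene induced by hypoxia and by many growth and stress signals, and BHLHE41 as a gene whose variants shorten sleep in humans.

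Both genes lie on chromosome 6, in GENCODE M21 on the GRCm38 build. Bhlhe40 (ENSMUSG00000030103.11) runs on the plus strand from 108660629 to 108666925 and has 4705 exonic bases. Bhlhe41 (ENSMUSG00000030256.11) runs on the minus strand from 145858243 to 145865558 and has 6720 exonic bases. The stretch just upstream of Bhlhe41 is printed because it holds the E-box, the motif that BMAL1, CLOCK and the DEC proteins recognise. It comes from RefSeq (GRCm38.p6), is 112 bases long and covers chr6:145865559-145865670 on the minus strand. The capitals mark the E-box.
Bhlhe41: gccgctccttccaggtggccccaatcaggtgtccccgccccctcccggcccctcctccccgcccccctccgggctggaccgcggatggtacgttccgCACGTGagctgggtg
The motif CACGTG occurs once here, and its first base lies 153 bases before the start that RefSeq gives. Searched on both strands in the 250 bases before each start, it stood in 1978 of 32851 promoters (6.02%). The hypoxia response core ACGTG occurred in 16.6% of promoters. Here it matched at 2 places, on opposite strands and both inside the E-box. CACGTG holds ACGTG on either strand, so these matches follow from the E-box and add nothing to it. TTATGTAA, a D-box, and GGGTCA, part of the REV-ERB and ROR element, had no match and occurred in 0.819% and 11.6% of promoters. Other forms of these elements were not searched for. The Bhlhe40 promoter was missing from the promoter set used and was not searched at all. A match describes letters and is not a binding site.

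The transcripts of the 2 genes can be told apart by sequence. The longest run that their coding transcripts share is 15 bases, printed because it is the stretch in which the pair is most alike.
Bhlhe40: gtcatccagcggact
Bhlhe41: gtcatccagcggact
It lies in the coding part of both, at positions 948 to 962 of Bhlhe40-201 and 913 to 927 of Bhlhe41-201. Each gene overlaps a noncoding gene on the opposite strand, 0610040F04Rik at Bhlhe40 with 0 to 8 counts per library and Gm43909 at Bhlhe41 with 0 to 11. Whether counting used strand is not stated in the labels, so reads of these partners cannot be told apart from those of the repressors. Counts of the repressors were far above those levels, from 292 to 1959 for Bhlhe40 and from 297 to 1527 for Bhlhe41.

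Libraries held 8944955 to 20596194 counts. Arntl, the targeted gene, averaged 17.5 ± 7.67 CPM in tamoxifen females, 15.1 ± 8.34 in tamoxifen males, 20.4 ± 18.5 in vehicle females and 16.3 ± 13.9 in vehicle males (SD, n = 24 each). CPM here are counts relative to the library total, scaled by TMM. These arithmetic means lay within 1 SD of each other. On the log2 scale the fitted mean of Arntl was higher after tamoxifen, by 0.44 ± 0.15 in females (edgeR, adjusted p = 0.01948) and by 0.36 ± 0.15 in males (adjusted p = 0.02869). Its daily swing was smaller after tamoxifen, with an amplitude of 0.87 ± 0.14 log2 in tamoxifen females and 0.87 ± 0.15 in tamoxifen males, against 2.38 ± 0.16 in vehicle females and 2.05 ± 0.16 in vehicle males. The difference of the wave passed the test in females (1.55 ± 0.21, adjusted p = 1.186e-05) and in males (1.20 ± 0.22, adjusted p = 0.0006306). Counts per gene do not show which exons the reads came from. In 5 tamoxifen libraries, 1 female and 4 male, Arntl was under 6 CPM, a level reached in no other tamoxifen library, and they included the libraries highest in Bhlhe40 in both sexes. They were taken at ct34, ct38, ct54 and ct58. Every vehicle library of ct34, ct38, ct58 and ct62 was also under 6 CPM. At those times a low Arntl level alone thus does not set a tamoxifen library apart from vehicle. At ct58 the low tamoxifen female library held 38.54 CPM of Ciart and 257.7 of Dbp, against 6.107 and 101.8 in the other tamoxifen female. Vehicle females of ct58 held 21.99 and 23.01 CPM of Ciart and 196 and 217.3 of Dbp. In both genes the low tamoxifen males of ct34, ct38 and ct58 lay between the other tamoxifen male and the vehicle males of their time. At ct54 the low tamoxifen male library held 1.30 CPM of Arntl, against 18.45 and 26.2 CPM in vehicle males. It also held 20.6 CPM of Ciart and 86.9 of Per2, against 0.731 and 8.58 in the other tamoxifen male library. Vehicle males held 6.64 and 6.67 CPM of Ciart and 8.17 and 11.4 of Per2 there. The cause was not tested. Another tamoxifen female library, at ct54, held 0.248 CPM of Xist, inside the range of the male libraries (0 to 0.531 CPM). Every other library labelled female held at least 204 CPM, so the sex label of this library is in doubt. It also held the most Myl7 of all libraries, 661 CPM. The cardiomyocyte markers summed to 27800 to 50300 CPM over all groups, and 13 libraries held over 20 CPM of the atrial gene Myl7 (1 tamoxifen female, 2 tamoxifen male, 7 vehicle female and 3 vehicle male libraries). Among the vehicle males, 10 libraries gave 0.123% to 0.19% of their counts to genes of the annotation class TEC (transcribed regions that await experimental support), above the highest value of any other group (0.112%). Most of these were taken at circadian times 6, 10 and 14 (modulo 24 h), and none at 22. In vehicle males this trait of the libraries is thus partly tied to the time of day, also in the shares of all genes called. Results that depend on these libraries are given with and without them.

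Both genes were expressed in every library. Bhlhe40 ranged from 27.1 to 104.9 CPM with a median of 41.1 in tamoxifen females and from 20.9 to 76.0 with a median of 39.0 in tamoxifen males. In vehicle females it ranged from 26.7 to 99.2 with a median of 58.5, and in vehicle males from 23.5 to 72.7 with a median of 39.1. Vehicle females thus had the highest median, and the ranges of all 4 groups overlapped. Bhlhe41 ranged from 31.97 to 81.7 CPM with a median of 38.5 in tamoxifen females and from 33.6 to 65.6 with a median of 43.0 in tamoxifen males. The vehicle libraries ran from 25.6 to 75.9 with a median of 39.7 in females and from 18.1 to 73.1 with a median of 42.4 in males. The medians of Bhlhe41 were close together, and the vehicle groups spread over a wider range than the tamoxifen groups at the low end. The 2 libraries of a time differed with an SD of 0.27 log2 in tamoxifen females, 0.39 in tamoxifen males, 0.30 in vehicle females and 0.25 in vehicle males for Bhlhe40. For Bhlhe41 the same SD was 0.18 in tamoxifen females, 0.19 in tamoxifen males, 0.12 in vehicle females and 0.26 in vehicle males.

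**Figure D1:**
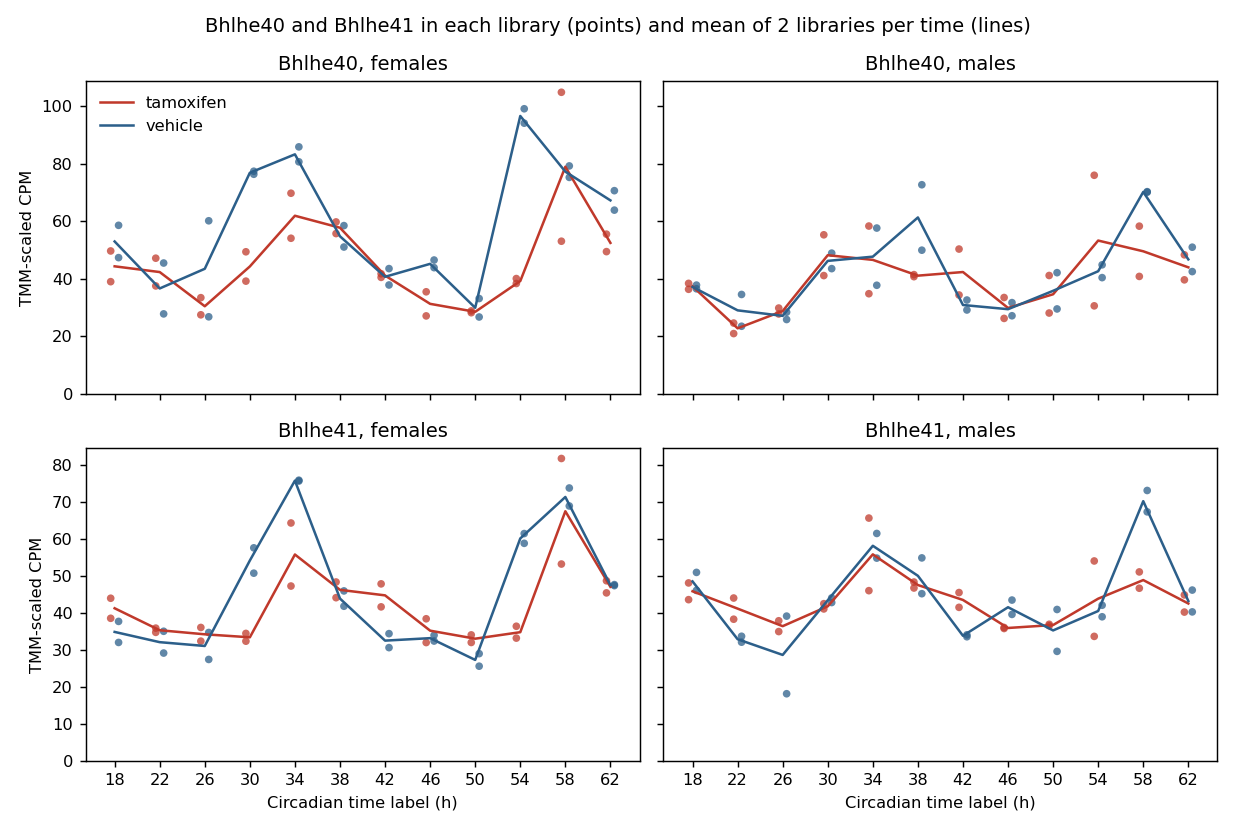
Points give the TMM-scaled CPM of Bhlhe40 (top) and Bhlhe41 (bottom) in each library against the circadian time label in hours, tamoxifen in red and vehicle in blue, and lines join the means of the 2 libraries of a time. At ct54 Bhlhe40 had a mean of 39.2 CPM in tamoxifen females, against 96.7 CPM in vehicle females, its highest mean there. Bhlhe41 had 34.8 CPM in tamoxifen females at that time, and its highest mean in vehicle females was 75.8 CPM at ct34.

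After tamoxifen, the 2 libraries of the time with the highest mean lay far apart, and such a mean can rest on 1 high library. Bhlhe40 was lowest at ct50 in tamoxifen females, with 28.2 and 28.8 CPM, and highest at ct58, with 53.1 and 104.9 CPM. The higher of those is one of the libraries with Arntl under 6 CPM (2.78 CPM). In tamoxifen males Bhlhe40 was lowest at ct22, with 20.9 and 24.6 CPM, and highest at ct54, with 30.6 and 76.0 CPM, the higher again from a library low in Arntl (1.30 CPM). Bhlhe41 was lowest at ct50 in tamoxifen females, with 31.99 and 34.04 CPM, and highest at ct58, with 53.2 and 81.7 CPM. In tamoxifen males it was lowest at ct46, with 35.8 and 36.1 CPM, and highest at ct34, with 46 and 65.6 CPM, so its highest mean was 1.55 times its lowest, against 2.45 times in vehicle males. In females that ratio for Bhlhe41 was 2.04 after tamoxifen and 2.78 with vehicle.

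In vehicle hearts both genes went through a daily course, and the 2 libraries of the time with the highest mean lay closer together. Other times near the top were spread more widely in vehicle males. Bhlhe40 there had 37.7 and 57.7 CPM at ct34 and 50 and 72.7 CPM at ct38. Bhlhe40 was lowest at ct50 in vehicle females, with 26.7 and 33.1 CPM, and highest at ct54, with 94.1 and 99.2 CPM. In vehicle males its lowest mean was at ct26, with 25.8 and 28.4 CPM, and its highest at ct58, with 70.1 and 70.3 CPM. In vehicle females the lowest and the highest mean of Bhlhe40 stood only 4 h apart, and the highest was 3.23 times the lowest, against 2.59 times in vehicle males. Bhlhe41 was lowest at ct50 in vehicle females, with 25.6 and 28.97 CPM, and highest at ct34, with 75.6 and 75.9 CPM. In vehicle males it was lowest at ct26, with 18.1 and 39.1 CPM, and highest at ct58, with 67.3 and 73.1 CPM. Here the paired values of the low time lay far apart in males and close together in females.

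The rhythm was tested with edgeR's quasi-likelihood test on a 24 h wave in each group, adjusted by the Benjamini-Hochberg method over 15629 genes, and a gene is called where the adjusted p is below 0.05. The wave is given by its amplitude, the distance from mean to peak in log2, and its peak in hours of circadian time. Bhlhe40 had an amplitude of 0.53 ± 0.09 (SE) peaking at 12.01 ± 0.65 h in tamoxifen females (adjusted p = 2.438e-05), where 17.1% of all tested genes were called. In tamoxifen males the amplitude was 0.42 ± 0.09 and the peak 10.2 ± 0.84 h (adjusted p = 0.004753, with 8.03% of genes called). In vehicle females it was 0.60 ± 0.09 at 9.58 ± 0.58 h (adjusted p = 7.772e-07, 34.5% called) and in vehicle males 0.54 ± 0.09 at 10.8 ± 0.64 h (adjusted p = 5.365e-06, 55.2% called). Bhlhe40 was thus rhythmic in all 4 groups. The call in tamoxifen males was lost without the libraries low in Arntl (0.32, adjusted p = 0.0776), without ct22 (0.34, adjusted p = 0.0506) and in ct42 to ct62 alone (0.36, adjusted p = 0.346).

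Bhlhe41 was called in 3 of the 4 groups. Its amplitude was 0.38 ± 0.07 with a peak at 12.5 ± 0.67 h in tamoxifen females (adjusted p = 5.339e-05). In tamoxifen males it was 0.22 ± 0.07 at 11.9 ± 1.2 h and did not pass the test (adjusted p = 0.0787). Vehicle females had the steepest wave, 0.63 ± 0.07 at 9.76 ± 0.41 h (adjusted p = 1.102e-11), and vehicle males one of 0.40 ± 0.07 at 11.5 ± 0.66 h (adjusted p = 6.858e-06). The wave of Bhlhe41 in tamoxifen males was called under 4 of 26 alternatives, among them a fit on that group alone (0.22, adjusted p = 0.0147). Both repressors peaked in the same part of the day in every group, with fitted peaks between 9.58 and 12.5 h.

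**Figure D2:**
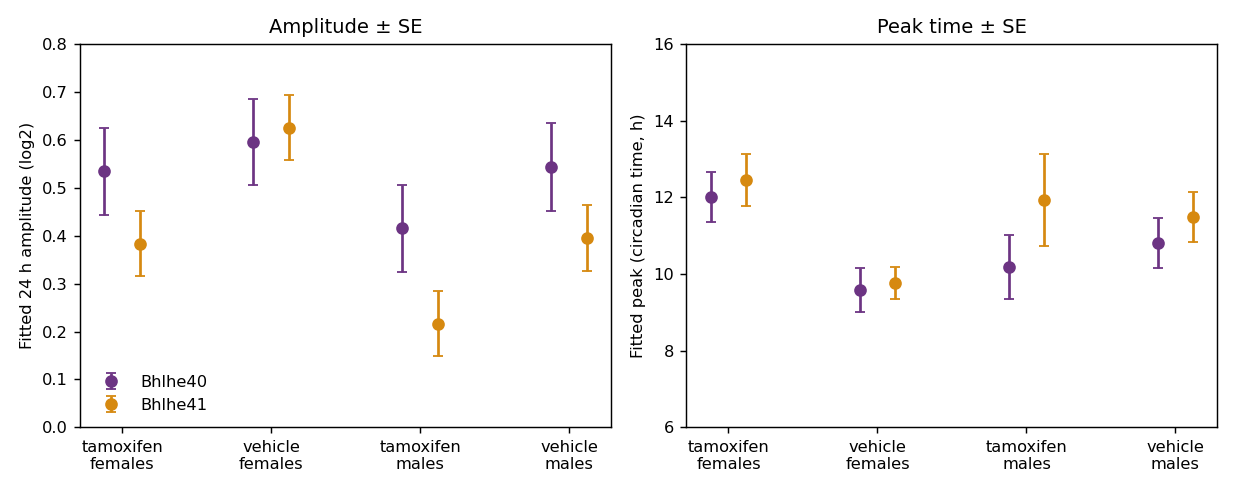
Left, fitted 24 h amplitude in log2, and right, fitted peak in hours of circadian time, of Bhlhe40 (purple) and Bhlhe41 (orange) in tamoxifen females, vehicle females, tamoxifen males and vehicle males, with bars of 1 SE. Amplitudes of Bhlhe41 were 0.38 and 0.22 in tamoxifen females and males, against 0.63 and 0.40 with vehicle, and the female peaks lay near 12 h after tamoxifen, against near 10 h with vehicle.

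Next, the tamoxifen waves were compared with the vehicle waves. In females the peak of Bhlhe40 was later by 2.43 ± 0.87 h after tamoxifen, and that of Bhlhe41 by 2.70 ± 0.79 h. The amplitude of Bhlhe40 in tamoxifen females was 89.8% of that in vehicle females, and that of Bhlhe41 was 61.3%. In males the peaks differed by -0.63 ± 1.06 h for Bhlhe40 and 0.46 ± 1.365 h for Bhlhe41, both within 1 SE, and the amplitudes were 76.4% and 54.6% of those in vehicle males. The test of the whole wave (the length of the difference of the cosine and sine terms, which has no sign) gave 0.42 ± 0.10 log2 for Bhlhe41 in females with an adjusted p of 0.05485, just short of a call, where 0.237% of genes were called. It gave 0.36 ± 0.13 for Bhlhe40 in females (adjusted p = 0.2497), and in males 0.15 ± 0.13 for Bhlhe40 (adjusted p = 0.6662) and 0.18 ± 0.10 for Bhlhe41 (adjusted p = 0.3064), where 20.7% of genes were called. The wave difference of Bhlhe41 in females passed under 10 of 26 alternatives, including DESeq2 (0.41, adjusted p = 0.0194) and the fit without the tamoxifen libraries low in Arntl (0.48, adjusted p = 0.001329). The latter fit dropped the tamoxifen female library highest in Bhlhe41 and no vehicle library. Whether the tamoxifen effect on the wave differed between the sexes was tested too, and neither gene passed (Bhlhe40 0.43 ± 0.18, adjusted p = 0.1982, and Bhlhe41 0.34 ± 0.14, adjusted p = 0.1584, with 10.3% of genes called). Without ct58 that difference passed for Bhlhe41 (0.44, adjusted p = 0.047).

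The mean level over the day differed with tamoxifen in 1 of the 4 comparisons of a gene in a sex. Bhlhe40 averaged 46.05 ± 16.8 CPM in tamoxifen females and 58.8 ± 21.6 CPM in vehicle females (SD, n = 24 each), a change of -0.34 ± 0.09 log2 (adjusted p = 0.002319, 95% interval -0.52 to -0.16). Of all genes, 27.5% were called in females, 12.3% as lower. In males Bhlhe40 averaged 39.9 ± 12.8 CPM after tamoxifen and 42.02 ± 14.2 CPM with vehicle, a change of -0.05 ± 0.09 that did not pass (adjusted p = 0.6251, interval -0.23 to 0.13), where 70% of genes were called. Bhlhe41 averaged 42.4 ± 11.7 CPM in tamoxifen females and 45.3 ± 16.4 CPM in vehicle females (-0.05 ± 0.07, adjusted p = 0.6181, interval -0.19 to 0.08). In males it averaged 43.3 ± 7.20 CPM after tamoxifen and 43.8 ± 12.2 CPM with vehicle (0.0025 ± 0.07, adjusted p = 0.9754, interval -0.13 to 0.14). The tamoxifen effect on the mean of Bhlhe40, female minus male, was -0.29 ± 0.13 with an adjusted p of 0.05115, where 52.3% of genes were called, and that of Bhlhe41 was -0.05 ± 0.10 (adjusted p = 0.6541). For Bhlhe40 this difference passed under 9 of 25 alternatives, DESeq2 among them (-0.30, adjusted p = 0.0406). The female call for Bhlhe40 was lost without the libraries high in Myl7 (-0.25, adjusted p = 0.0633) and in ct18 to ct38 alone (-0.30, adjusted p = 0.0766).

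These are bulk libraries, in which fewer cells of a type and less RNA per cell cannot be told apart. Other cell types moved with the same groups. Of 5 fibroblast markers, 4 were higher in tamoxifen females, where 15.2% of all genes were higher and 12.3% lower, and their sum ran from 769 to 1400 CPM (median 1060) in tamoxifen females, against 717 to 1130 CPM (median 829) in vehicle females. Of 6 macrophage markers, 4 were lower in tamoxifen females, with sums of 83.4 to 197 CPM (median 136) against 126 to 215 CPM (median 166) in vehicle females. Of 5 endothelial markers, 2 were lower in tamoxifen females, with sums of 557 to 877 CPM (median 728) after tamoxifen and 668 to 975 CPM (median 777) with vehicle. Of 3 tested atrial markers, 2 were lower in tamoxifen females, Myl7 (-3.75 ± 1.32) and Myl4 (-2.15 ± 0.80), and none was higher. Sums over all 4 atrial markers ran from 38.2 to 3530 CPM (median 130) after tamoxifen and from 53.6 to 2240 CPM (median 213) with vehicle. None of these markers was at 0 in every library of a group. Beyond leaving out the libraries high in Myl7, their part in the result for Bhlhe40 was not tested.

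Tamoxifen and vehicle females differed past the test at 1 of 6 times of day, the same for both genes. Libraries 24 h apart were combined, which gives 6 times with 4 libraries in each group, and tamoxifen was compared with vehicle at each. At circadian time 6 (ct30 and ct54), where the mean of Bhlhe40 in vehicle females was at its highest and that of Bhlhe41 still below its highest, Bhlhe40 stood at 38.3, 39.2, 40.1 and 49.4 CPM in tamoxifen females, against 76.4, 77.4, 94.1 and 99.2 CPM in vehicle females. Every tamoxifen library was below every vehicle library, and the change was -1.06 ± 0.21 log2, a fold of 0.48 (adjusted p = 0.0006108, with 3.34% of genes called). Bhlhe41 stood at 32.3, 33.2, 34.4 and 36.4 CPM in tamoxifen females, against 50.7, 57.6, 58.8 and 61.4 CPM in vehicle females. Again the groups did not overlap, and the change was -0.74 ± 0.14, a fold of 0.597 (adjusted p = 0.0001992). How large a share of all genes had no overlap was not counted. Both calls held without the tamoxifen library low in Xist, which is one of the 4 (-1.04, adjusted p = 0.003573 for Bhlhe40 and -0.73, adjusted p = 0.001453 for Bhlhe41), and without the libraries high in Myl7 (-0.995, adjusted p = 0.0152, and -0.71, adjusted p = 0.003593). With 1 of the 2 days left out, 2 libraries a group remained at that time. Bhlhe40 then kept its call without ct30 (-1.30, adjusted p = 0.0227) but not without ct54 (-0.80, adjusted p = 0.2944), and Bhlhe41 missed it without ct30 (-0.79, adjusted p = 0.0509) and without ct54 (-0.69, adjusted p = 0.0906).

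Males gave other values at the same time. At circadian time 6, Bhlhe40 stood at 30.6, 41.1, 55.3 and 76.0 CPM in tamoxifen males, against 40.4, 43.5, 44.8 and 48.9 CPM in vehicle males. The tamoxifen libraries lay on both sides of the vehicle ones, and the change of 0.19 ± 0.21 did not pass (adjusted p = 0.4851, where 34.6% of genes were called). Without the library of 76.0 CPM, one of those low in Arntl, the value was -0.07 (adjusted p = 0.8316). Bhlhe41 stood at 33.6, 41.1, 42.5 and 54.03 CPM in tamoxifen males, against 38.9, 42.1, 42.8 and 44.0 CPM in vehicle males (0.03 ± 0.14, adjusted p = 0.8881, and -0.10 without the same library, adjusted p = 0.6026). The tamoxifen effect differed between the sexes at this time, female minus male, by -1.25 ± 0.29 for Bhlhe40 (adjusted p = 0.00216) and by -0.77 ± 0.19 for Bhlhe41 (adjusted p = 0.003241), where 22.6% of genes were called. Leaving out the 10 vehicle males set apart above, which leaves 1 vehicle male library at this time, kept the sizes and ended the calls (-1.22, adjusted p = 0.13, and -0.76, adjusted p = 0.1091). Leaving out ct30 or ct54 also ended the calls (-1.625 and -0.87 for Bhlhe40, -0.90 and -0.66 for Bhlhe41). This difference includes that between the vehicle groups, where sex and number series cannot be told apart. At the other 5 times this difference between the sexes was called for neither gene (adjusted p between 0.6238 and 1), where 0% of genes were called at circadian times 2, 18 and 22, 29.8% at 10 and 24.9% at 14.

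**Figure D3:**
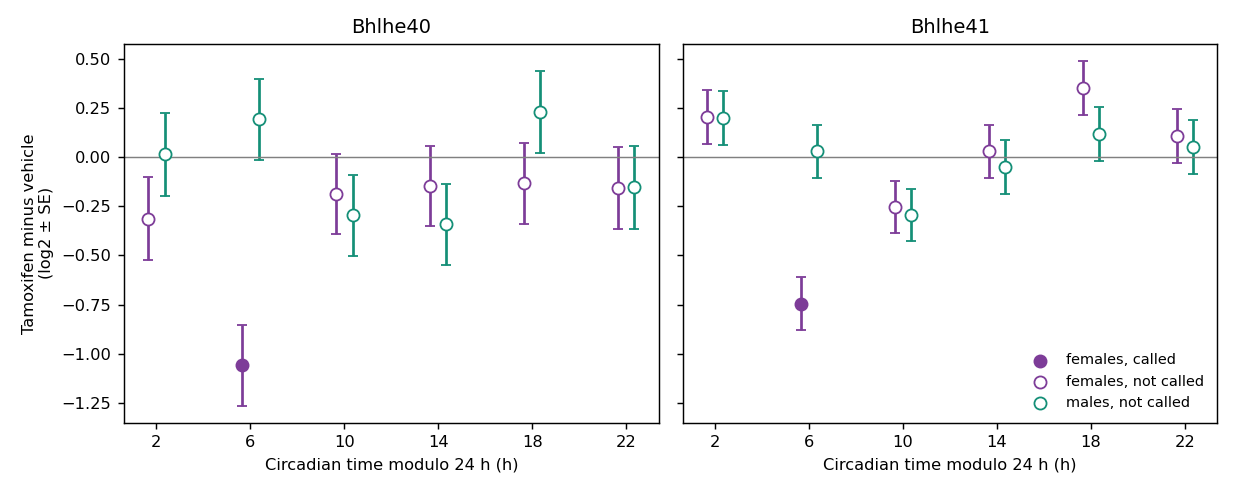
Tamoxifen minus vehicle in log2 (with bars of 1 SE) at 6 circadian times, modulo 24 h, for Bhlhe40 (left) and Bhlhe41 (right), in females (purple) and males (green), filled where called. The only filled points are the females at 6 h, at -1.06 and -0.74.

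At the other 5 times no difference was called in either sex. Of all genes, the share called in females was 3.26% at circadian time 2, 1.58% at 10, 3.22% at 14, 5.45% at 18 and 1.87% at 22. In males it was 8.65% at circadian time 2, 48.5% at 10, 49.5% at 14, 6.46% at 18 and 1.93% at 22. At circadian time 2, the trough, Bhlhe40 stood at 27.5, 28.2, 28.8 and 33.4 CPM in tamoxifen females, against 26.7, 26.8, 33.1 and 60.2 CPM in vehicle females (-0.31 ± 0.21, adjusted p = 0.4723). At circadian time 10 it had reached 53.1, 54.1, 69.8 and 104.9 CPM in tamoxifen females, against 75.3, 79.3, 80.7 and 85.9 CPM in vehicle females (-0.19 ± 0.20, adjusted p = 0.8897). Tamoxifen females thus reached vehicle levels in 1 of 4 libraries at that time, the one low in Arntl, while the mean difference was within 1 SE. Bhlhe41 at circadian time 10 stood at 47.3, 53.2, 64.3 and 81.7 CPM in tamoxifen females, against 68.9, 73.8, 75.6 and 75.9 CPM in vehicle females (-0.25 ± 0.13, adjusted p = 0.5246). At circadian time 18, on the falling side, Bhlhe41 lay the other way round, at 38.5, 41.6, 44.0 and 47.8 CPM in tamoxifen females, against 30.6, 32, 34.4 and 37.7 CPM in vehicle females. All tamoxifen libraries were higher there, by 0.35 ± 0.14, but the difference did not pass over all genes (adjusted p = 0.113), except without the 10 vehicle males set apart above (0.36, adjusted p = 0.0303). The share of all genes without overlap was not counted here either. In males Bhlhe41 at circadian time 10 came nearest to a call, with 46, 46.7, 51.1 and 65.6 CPM in tamoxifen males, against 54.8, 61.5, 67.3 and 73.1 CPM in vehicle males (-0.29 ± 0.13, adjusted p = 0.0611). Without the libraries low in Arntl it passed (-0.47, adjusted p = 0.0105), as did Bhlhe40 at that time (-0.64, adjusted p = 0.0225, against -0.30 ± 0.21 and adjusted p = 0.2294 with all libraries). That cut removed the tamoxifen males highest in both genes at this time and left those at 46 and 46.7 CPM of Bhlhe41. All vehicle males of this time were kept, though they too held under 6 CPM of Arntl. The cut thus lowers the tamoxifen side alone, and no conclusion is drawn from it.

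The sexes were also compared within each treatment. Bhlhe40 was higher in females in vehicle hearts, by 0.47 ± 0.09 log2 over the day (58.8 ± 21.6 CPM in females and 42.02 ± 14.2 CPM in males, adjusted p = 4.202e-06, 95% interval 0.29 to 0.65), where 68.3% of all genes were called, 31.8% as higher in females. In tamoxifen hearts the difference was 0.18 ± 0.09 and did not pass (46.05 ± 16.8 CPM in females and 39.9 ± 12.8 CPM in males, adjusted p = 0.2284, with 7.68% of genes called). In vehicle hearts the sex difference of Bhlhe40 kept its call under all 26 alternatives, from 0.35 to 0.55. None of these alternatives separates sex from the number series of the libraries, which differs between vehicle females and vehicle males. Cell type markers differed between the same groups, where 36.5% of all genes were lower in vehicle females. All 5 endothelial markers were lower in vehicle females, with sums of 668 to 975 CPM (median 777) in vehicle females and 714 to 1500 CPM (median 949) in vehicle males. The 3 tested lymphocyte markers were lower too, with sums of 0.914 to 4.22 CPM over all 6 in vehicle females and 1.88 to 7.56 CPM in vehicle males. Of 3 tested atrial markers 2 were higher in vehicle females, and of 7 cardiomyocyte markers 3 were higher and 3 lower. Their part in the difference of Bhlhe40 was not tested. Bhlhe41 did not pass in either treatment, with a female minus male difference of -0.05 ± 0.07 in tamoxifen hearts (adjusted p = 0.7427) and 0.0036 ± 0.07 in vehicle hearts (adjusted p = 0.9643). Its 95% intervals were -0.19 to 0.08 and -0.13 to 0.14.

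For the wave, Bhlhe41 passed and Bhlhe40 did not, and the difference between the genes was not tested. Bhlhe41 differed between vehicle females and vehicle males by 0.32 ± 0.10 (adjusted p = 0.01593, where 37.4% of genes were called). Its amplitude in vehicle females was 158% of that in vehicle males, and its peak lay earlier (-1.725 ± 0.78 h). This call was lost without the libraries high in Myl7 (0.32, adjusted p = 0.0617), without the 10 vehicle males set apart above (0.32, adjusted p = 0.0790), in ct42 to ct62 alone (0.29, adjusted p = 0.2497), and when ct18 (0.28, adjusted p = 0.0828), ct34 (0.30, adjusted p = 0.0503) or ct54 (0.27, adjusted p = 0.0606) was left out. For Bhlhe40 the wave difference in vehicle hearts was 0.19 ± 0.13 (adjusted p = 0.4441). In tamoxifen hearts neither gene passed (0.25 ± 0.13 for Bhlhe40 and 0.17 ± 0.10 for Bhlhe41, both with an adjusted p of 0.9999), where 0.0384% of genes were called.

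The time of day at which the sexes stood apart in vehicle hearts was again circadian time 6. Bhlhe40 was higher there in vehicle females by 0.97 ± 0.21 (adjusted p = 0.0002671) and Bhlhe41 by 0.45 ± 0.14 (adjusted p = 0.00728), with 38.2% of genes called. In each gene the lowest vehicle female library (76.4 CPM of Bhlhe40 and 50.7 CPM of Bhlhe41) was above the highest vehicle male library (48.9 and 44.0 CPM). The share of all genes separated in this way was not counted. At the other 5 times neither gene was called with all libraries, where 24.5% of genes were called at circadian time 2, 51.3% at 10, 48.8% at 14, 0.672% at 18 and 2.42% at 22. Bhlhe40 at circadian time 10 came nearest (0.44 ± 0.20, adjusted p = 0.0608), and passed without the tamoxifen libraries low in Arntl (0.44, adjusted p = 0.0371), without ct26 (0.44, adjusted p = 0.0479), without ct54 (0.46, adjusted p = 0.04345) and without ct58 (0.80, adjusted p = 0.0163). In tamoxifen hearts the female minus male difference at circadian time 6 was -0.28 ± 0.21 for Bhlhe40 (adjusted p = 0.5737) and -0.33 ± 0.14 for Bhlhe41 (adjusted p = 0.2493, with 1.3% of genes called). Without the 10 vehicle males set apart, both vehicle differences kept their size and missed the threshold (0.94, adjusted p = 0.1345, and 0.43, adjusted p = 0.2272). Leaving out a day kept the call for Bhlhe40 (0.75 to 1.18) and ended it for Bhlhe41 (0.57 without ct30, adjusted p = 0.0665, and 0.33 without ct54, adjusted p = 0.166).

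No difference between the second and the first 24 h passed the test. The second minus the first day differed for Bhlhe40 by -0.10 ± 0.12 in tamoxifen females, 0.19 ± 0.12 in tamoxifen males, -0.01 ± 0.12 in vehicle females and 0.03 ± 0.12 in vehicle males. For Bhlhe41 the difference was 0.07 ± 0.08 in tamoxifen females, -0.09 ± 0.08 in tamoxifen males, -0.0090 ± 0.08 in vehicle females and 0.01 ± 0.08 in vehicle males. Adjusted p-values were 0.8541 or more, and the share of genes called was 0.0704% in tamoxifen females, 0% in tamoxifen males, 0% in vehicle females and 0.141% in vehicle males.

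Per kilobase of exon, Bhlhe40 was the more abundant of the pair. Its level was 9.79 ± 3.56 CPM per kb in tamoxifen females, 8.47 ± 2.72 in tamoxifen males, 12.5 ± 4.58 in vehicle females and 8.93 ± 3.02 in vehicle males. Bhlhe41 had 6.30 ± 1.74 CPM per kb in tamoxifen females, 6.45 ± 1.07 in tamoxifen males, 6.74 ± 2.44 in vehicle females and 6.52 ± 1.82 in vehicle males. The ratio of Bhlhe40 to Bhlhe41 had a median of 1.52 in tamoxifen females (1.21 to 2.18), 1.26 in tamoxifen males (0.781 to 2.01), 1.85 in vehicle females (1.32 to 2.48) and 1.44 in vehicle males (0.892 to 2.03). Bhlhe40 was the higher in all 24 libraries of both female groups and in 22 of 24 of both male groups. The length used is that of all annotated exons, which may exceed the transcripts present.

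**Figure D4:**
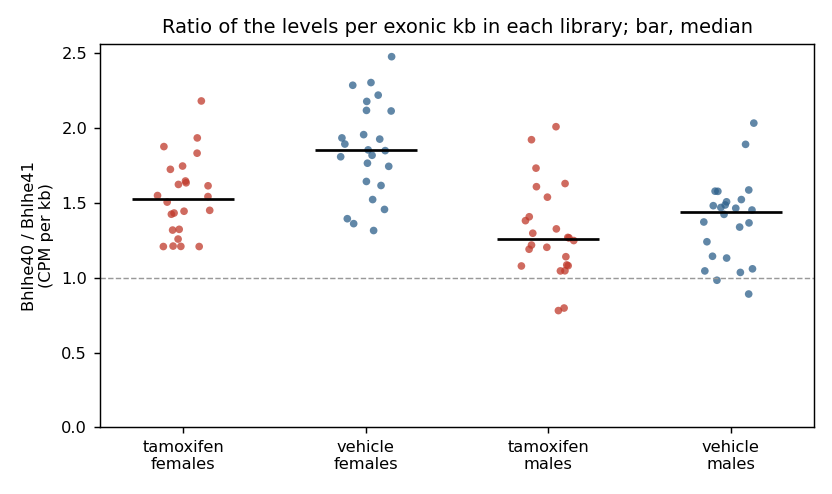
Each point is the ratio of Bhlhe40 to Bhlhe41, both in CPM per kb of exon, in a library, by group, with a bar at the median and a dashed line at equal levels. Medians were 1.52 in tamoxifen females, 1.85 in vehicle females, 1.26 in tamoxifen males and 1.44 in vehicle males.

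The 2 genes followed each other over the day. Over the 12 time means of a group, their log2 levels had a Pearson r of 0.884 in tamoxifen females, 0.598 in tamoxifen males, 0.933 in vehicle females and 0.85 in vehicle males, as a description, since both come from the same libraries. Across all 48 means of group and time, the gene most like each of them among 11055 genes with at least 5 CPM was Dbp, an E-box target and PAR-bZIP activator of daily output genes, with an r of 0.791 for Bhlhe40 and 0.848 for Bhlhe41. For Bhlhe40 the next were Bhlhe41 itself (0.773), Dedd2, a gene of death-effector proteins (0.734), Nr1d2, which encodes the clock repressor REV-ERB beta (0.732), and Klf9, a Krüppel-like factor (0.718). For Bhlhe41 they were the PAR-bZIP genes Tef (0.79) and Hlf (0.779), the deubiquitinase gene Usp2 (0.781) and Bhlhe40. In the 24 vehicle means alone, Bhlhe40 was most like Dedd2 (0.83), Bhlhe41 (0.82), the spermidine synthase gene Srm (0.781), Nr1d2 (0.771) and Egflam (0.77). Bhlhe41 was there most like Dbp (0.901), the clock repressor gene Ciart (0.879), Mlf1 (0.872), Usp2 (0.866) and Srm (0.85), with Bhlhe40 at the seventh place. In the 24 tamoxifen means alone the pair had an r of 0.721, where Bhlhe41 was at place 33 for Bhlhe40 and Bhlhe40 at place 28 for Bhlhe41.

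The rest of the clock gives the setting. Of the 7 genes of the activating arm, 5 had a higher mean and 1 a lower one in tamoxifen females, where 15.2% of all genes were higher and 12.3% lower. In tamoxifen males 5 were higher and 2 lower, where 32.2% of all genes were higher and 37.8% lower. The highest were Npas2, a partner of BMAL1 (1.20 ± 0.13 in females and 1.27 ± 0.13 in males), and Rorb (1.01 ± 0.13 in females and 0.996 ± 0.13 in males), and Rora was lower (-0.28 ± 0.04 in females and -0.20 ± 0.04 in males). In males Arntl2 had the larger decrease (-0.40 ± 0.06). Of the 9 other repressors, 3 were higher and 4 lower in each sex, with a median change of -0.16 in females and -0.03 in males, beside 0.0056 and -0.05 over all genes. Ciart had the lowest change (-1.91 ± 0.27 in females and -1.62 ± 0.24 in males), followed by Nr1d2 (-1.10 ± 0.10 in females and -0.92 ± 0.10 in males). Nfil3, which encodes a bZIP repressor, was higher (1.12 ± 0.10 in females and 1.02 ± 0.11 in males), as was Cry1, which encodes a partner of the PER proteins (0.85 ± 0.07 in females and 0.90 ± 0.07 in males). All of these named changes passed the test. Of 9 output genes, 8 were lower in tamoxifen females and 6 lower with 1 higher in tamoxifen males, where Dbp stood at -0.64 ± 0.15 in females and -0.82 ± 0.15 in males. Beside these stand the mean changes of -0.34 for Bhlhe40 and -0.05 for Bhlhe41 in females.

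The other repressors also had a daily wave, with all 9 called in tamoxifen females and 8 of 9 in tamoxifen males, and all 9 in both vehicle groups. Of all genes, 17.1% were called in tamoxifen females, 8.03% in tamoxifen males, 34.5% in vehicle females and 55.2% in vehicle males. Their median amplitude was 1.15 in tamoxifen females, 0.998 in tamoxifen males, 1.14 in vehicle females and 1.18 in vehicle males, above those of Bhlhe40 and Bhlhe41. In the activating arm 3 of 7 were called in tamoxifen females, 2 in tamoxifen males, 6 in vehicle females and 5 in vehicle males, and its median amplitude was 0.21 in tamoxifen females, 0.20 in tamoxifen males, 0.60 in vehicle females and 0.53 in vehicle males. The wave itself differed between tamoxifen and vehicle in 3 of 9 repressors in females, Nr1d1 (1.30), Nfil3 (0.76) and Cry1 (0.60), and in 1 in males, Per2 (1.03). No output gene of the list passed that test in females and 2 of 9 did in males, Nampt (0.51) and Hlf (0.40). In the activating arm, which includes Arntl itself, 3 of 7 passed in females and 4 of 7 in males. The share of all genes called in that test was 0.237% in females and 20.7% in males. The male counts of repressors and output genes were thus near or below the share of all genes, and that of the activating arm was above it.

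**Figure D5:**
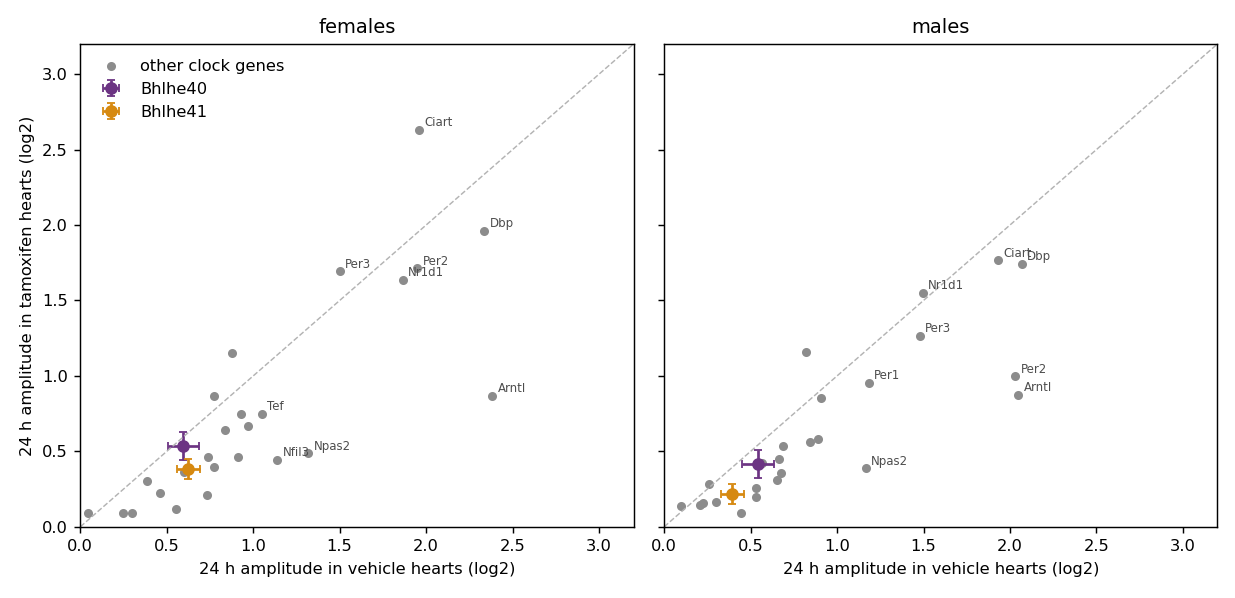
Fitted 24 h amplitude in log2 after tamoxifen (vertical) against vehicle (horizontal) in females (left) and males (right), for Bhlhe40 (purple) and Bhlhe41 (orange) with bars of 1 SE and for the other clock genes of the 3 lists (grey, named above an amplitude of 1 in vehicle hearts), whether or not called. Bhlhe40 and Bhlhe41 lie low on both axes and on or below the dashed line of equal amplitude, and Arntl lies far below it, at 0.87 against 2.38 in females.

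Genes that the DEC proteins are reported to repress, and their relatives, completed the lists. Of 10 reported targets 7 were tested, and none was higher after tamoxifen. Of all genes, 15.2% were higher and 12.3% lower in tamoxifen females, and 32.2% higher and 37.8% lower in tamoxifen males. In females 3 were lower, Dbp, Nr1d1 (-0.47 ± 0.10) and the lipid regulator Srebf1 (-0.15 ± 0.05), and in males 4, led by Dbp, Nr1d1 (-0.61 ± 0.10) and the angiogenic factor gene Vegfa (-0.43 ± 0.06). The list's median was -0.15 in females and -0.20 in males, beside 0.0056 and -0.05 over all genes. Several of these are also direct targets of BMAL1 and CLOCK. Of 10 other repressors of the hairy type 6 were tested, and 2 were higher and 2 lower in females (Heyl 0.20 ± 0.06 and Hes1 0.18 ± 0.06, Helt -0.44 ± 0.17 and Hey2 -0.36 ± 0.07), and 3 lower in males (Helt -0.56 ± 0.16, Hey1 -0.41 ± 0.10 and Hes1 -0.18 ± 0.06). Of 16 genes induced by hypoxia 15 were tested, of which 4 were higher and 4 lower in tamoxifen females, and 8 were higher and 5 lower in tamoxifen males. Ddit4, a stress-induced inhibitor of mTORC1, had the highest value of that list in both sexes (1.18 ± 0.13 in females and 1.17 ± 0.13 in males). The hypoxia list's median was -0.02 in females and 0.13 in males.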

How the data were processed

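Poly-A selected RNA of 96 mouse ventricle samples was sequenced on an Illumina NovaSeq, per the labels' protocols. The authors deposited 1 table of raw, unnormalized counts, with a row for each gene and a column for each library. HISAT2, Picard and HTSeq and the builds GRCm38 and mm10 are named in the submitters' processing notes, and neither versions nor the strand setting of counting is stated there. Counts per gene do not separate isoforms, and poly-A selection leaves RNAs without a tail uncounted. All 96 columns matched the title of 1 library and 0 columns were left unmapped. The table lists 26 rows in the form of dates, which hold 0.1345% of the counts, and both repressors stand under their own symbols.

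Tests used R 4.3.3 and edgeR 4.0.16. Genes passing filterByExpr by group (minimum count 10), 15629 in all, were scaled by TMM and fitted with glmQLFit, each of the 4 groups having a mean and 24 h cosine and sine terms (12 coefficients, 84 residual degrees of freedom). For single times, a fit with 24 cells of group by circadian time modulo 24 h took the place of the wave. Benjamini-Hochberg adjustment ran over all tested genes. Tamoxifen effects are tamoxifen minus vehicle and sex differences female minus male. Values after ± are SE for log2 values and hours, and SD for CPM. Likeness is Pearson's r of log2 CPM (prior count 2) over means of the 2 libraries of a group and time. Named genes are the repressors, Arntl, for each repressor the 5 genes most like it over all groups and over the vehicle groups, and at most 3 called members of a list with the largest change in a direction. The 2 repressors, the gene lists and the tests were chosen with earlier results of these data known. In addition to the lists the text names, markers of mural cells (2 of 4 lower in males, 1 of 4 lower in females), lymphocytes (3 of 6 tested, all lower in males, none called in females) and skeletal muscle (2 of 5 tested, both lower in males, 1 higher in females) were examined.

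The replicates were compared first: over 48 pairs of libraries the chi-square per gene ran from 3.86 to 99.6 (genes with at least 20 counts), so no pair was a duplicate. Depth was 8944955 to 20596194 counts per library, and each repressor had at least 292 counts in every library. DESeq2 1.42.0, other scalings, another filter, added 12 h terms, single days, left-out times and left-out libraries were the alternatives, and the sex contrasts at single times and some left-out libraries were added after seeing the data.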

Additional observations from a re-analysis of the deposited data

Results flagged for a closer look

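In 3 of 48 sets of 4 libraries (a gene in a group at a circadian time), 1 library stood apart from the other 3 by the 95% limit of Dixon's test, which chance passes in about 1 of 20 sets. The highest Bhlhe40 value of tamoxifen females at circadian time 6 was 49.4 CPM, at ct30, still below the lowest vehicle female library. The highest value of Bhlhe40 in tamoxifen males at circadian time 2 was 41.1 CPM. In vehicle females at circadian time 22 the lowest value of Bhlhe40 was 27.8 CPM. No set of Bhlhe41 was picked out.

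The daily wave or the tamoxifen effect differed between the sexes in 3 results, each by a test of that difference. Sex differences in level are given in the results above. All 3 results involve the vehicle groups, where sex cannot be told apart from the number series of the libraries. The wave of Bhlhe41 differed between vehicle females and vehicle males (0.32, adjusted p = 0.01593). At circadian time 6 the tamoxifen effect in females minus that in males was -1.25 for Bhlhe40 (adjusted p = 0.00216) and -0.77 for Bhlhe41 (adjusted p = 0.003241).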

How the results depend on the processing

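Values are log2. Always called, in each of 26 alternatives, were the waves of Bhlhe40 in tamoxifen females and both vehicle groups, those of Bhlhe41 in the same 3 groups, and the sex difference of Bhlhe40 in vehicle hearts. No alternative separates that sex difference, or any tamoxifen effect, from the number series of the libraries. Results at circadian time 6, the sex difference of Bhlhe40 in vehicle hearts at circadian time 10 and the sex difference of the tamoxifen effect on the Bhlhe41 wave also crossed the threshold, as given beside them in the results above. The cause of the changes below was not tested. No paired analysis was possible because the groups share no replicate numbers. Each repressor had at least 292 counts in every library, and each group had 4 libraries at a time of day.

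Calls were lost as follows. The mean tamoxifen effect on Bhlhe40 in females missed the threshold at -0.25 without libraries high in Myl7 and at -0.30 in ct18 to ct38. The wave of Bhlhe40 in tamoxifen males missed it at 0.32 without tamoxifen libraries low in Arntl and at 0.36 in ct42 to ct62. The sex difference of the Bhlhe41 wave in vehicle hearts missed it at 0.32 without libraries high in Myl7, at 0.32 without the 10 vehicle males and at 0.29 in ct42 to ct62.

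Calls were gained as follows. The difference of the Bhlhe41 wave between tamoxifen and vehicle females passed at 0.41 with DESeq2 and in those 2 groups alone, 0.43 with 12 h terms, 0.48 without Tam_F_ct58_565 and without the libraries low in Arntl, 0.42 without Tam_M_ct54_556 and without the 10 vehicle males, and 0.45 without libraries high in Myl7. The female minus male tamoxifen effect on the mean of Bhlhe40 passed at -0.30 with DESeq2 and RLE size factors, -0.34 without Tam_F_ct58_565, -0.28 with 12 h terms and -0.33 with no filter. The wave of Bhlhe41 in tamoxifen males passed at 0.23 by library size alone, 0.22 in that group alone, 0.21 with 12 h terms and 0.21 without the 10 vehicle males. At circadian time 10 the tamoxifen effect in males passed for Bhlhe41 at -0.40 by library size alone, -0.41 without libraries high in Myl7 and -0.47 without libraries low in Arntl, and for Bhlhe40 at -0.64 without the same libraries. The cut at low Arntl took out tamoxifen libraries alone, among them those highest in both repressors at circadian time 10. At circadian time 18 in females Bhlhe41 passed at 0.36 without the 10 vehicle males. In vehicle hearts at circadian time 2, Bhlhe41 was lower in females without them (-0.34, adjusted p = 0.0478).

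Changes of sign concerned results not called with all libraries. The mean tamoxifen effect on Bhlhe41 in males was -0.0151 without Tam_M_ct54_556, -0.0745 by library size alone, -0.0175 in the groups compared alone, -0.0557 without libraries low in Arntl, -0.0891 without the 10 vehicle males and -0.0590 in ct42 to ct62, and in females it was 0.00164 without libraries high in Myl7. For Bhlhe40 in males it was 0.0239 in ct42 to ct62. The sex difference of Bhlhe41 in vehicle hearts was -0.0237 by library size alone, -0.0961 without the 10 vehicle males and -0.00598 in ct42 to ct62, and in tamoxifen hearts 0.0376 in ct42 to ct62. The female minus male tamoxifen effect on its mean was 0.0445 without the 10 vehicle males and 0.0436 in ct42 to ct62. The tamoxifen effect in males at circadian time 6 was -0.0676 for Bhlhe40 and -0.10 for Bhlhe41 without Tam_M_ct54_556, -0.0675 and -0.10 without libraries low in Arntl, and -0.0423 for Bhlhe41 by library size alone. At circadian time 2 in males Bhlhe40 was at -0.0632 by library size alone, -0.13 without libraries high in Myl7 and -0.0682 without the 10 vehicle males, and at circadian time 18 in females at 0.0933 without libraries high in Myl7. The sex difference of that effect was -0.13 for Bhlhe41 and -0.15 for Bhlhe40 at circadian time 10 without Tam_F_ct58_565, -0.00707 by library size alone and -0.0665 without libraries high in Myl7 for Bhlhe41 at circadian time 2, and 0.0320 without libraries high in Myl7 and 0.00120 without the 10 vehicle males for Bhlhe40 at circadian time 22. In vehicle hearts without those males the sex difference was -0.0219 for Bhlhe40 at circadian time 14 and -0.000474 for Bhlhe41 at circadian time 10. By library size alone, the second minus first day was 0.0155 for Bhlhe40 and 0.0198 for Bhlhe41 in vehicle females and -0.00542 and -0.0180 in vehicle males.

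With each time left out in turn, the lowest and highest values were as follows. The waves ran from 0.34 to 0.45 for Bhlhe40 in tamoxifen males. The wave differences of Bhlhe41 ran from 0.35 to 0.48 between tamoxifen and vehicle females, 0.27 to 0.37 between vehicle sexes and 0.23 to 0.44 for the tamoxifen effect between the sexes. The female minus male tamoxifen effect on the mean of Bhlhe40 ran from -0.39 to -0.18. The mean differences of Bhlhe41 ran from -0.0194 to 0.0502 for tamoxifen in males and -0.0227 to 0.0439 for sex in vehicle hearts. In females the tamoxifen effect on Bhlhe40 ran from -1.30 to -0.80 at circadian time 6, -0.43 to 0.0329 at 10, -0.36 to 0.0784 at 14, -0.26 to 0.0156 at 18 and -0.53 to 0.20 at 22, and on Bhlhe41 from -0.79 to -0.69 at 6 and -0.0144 to 0.0770 at 14. In males it ran for Bhlhe40 from -0.0474 to 0.0881 at 2 and -0.35 to 0.0191 at 22, and for Bhlhe41 from -0.0393 to 0.11 at 6, -0.52 to -0.0591 at 10, -0.0715 to 0.36 at 18 and -0.21 to 0.32 at 22. The difference of that effect between the sexes ran for Bhlhe40 from -0.39 to 0.54 at 10, -0.27 to 0.62 at 14 and -0.55 to 0.55 at 22, and for Bhlhe41 from -0.21 to 0.22 at 2, -0.38 to 0.44 at 10 and -0.19 to 0.29 at 22. The sex difference in vehicle hearts ran for Bhlhe40 from -0.26 to 0.68 at 2 and -0.13 to 0.53 at 14, and for Bhlhe41 from -0.37 to 0.12 at 2 and -0.16 to 0.14 at 14.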
